A study of Mus musculus with 30 samples.

Results

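Glycolysis breaks glucose down to pyruvate in the cytoplasm, and lactate dehydrogenase can then turn pyruvate into lactate, which regenerates the cofactor that keeps the pathway running. Fast-growing embryonic tissues often make lactate in this way even when oxygen is present, and several glycolytic genes are textbook targets of hypoxia-inducible factors and of MYC. The 10 genes described here run along the pathway in order: *Slc2a1* (the glucose carrier GLUT1), *Hk1* and *Hk2* (hexokinases, which trap glucose in the cell), *Pfkl* and *Pfkp* (phosphofructokinases, the main control step), *Aldoa* (aldolase), *Tpi1* (triosephosphate isomerase), *Pgam1* (phosphoglycerate mutase), *Pkm* (pyruvate kinase) and *Ldha* (lactate dehydrogenase). They were chosen by symbol from the FPKM table and joined by Ensembl identifier to the table of read counts, which gave 11 rows of 50833, since *Aldoa* has a second protein-coding row that ends 38 bp upstream of the main one.

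Forelimb buds came from wild-type Swiss Albino mouse embryos whose mothers were injected at embryonic day E10.5 either with DMSO, the solvent control, or with C59 (Wnt-C59), a small molecule that inhibits the enzyme porcupine and so blocks secretion of WNT ligands. Buds were taken 1, 6, 12, 18 and 24 h later, which gives 10 groups of 3 libraries, 30 in all, and no group carries a mutation or transgene. Each library was made from 1 pair of forelimb buds, so it holds ectoderm, mesenchyme, muscle precursors, vessels and blood together. The embryos were exposed through the mother, and the labels do not give the litter of each embryo.

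The libraries held between 18188636 and 38974885 counted fragments. *Axin2*, a direct target of canonical WNT signaling, had log2 ratios of C59 to DMSO of -0.19, -1.97 and -1.45 at the first 3 times, 1 to 12 h, all past the edgeR quasi-likelihood test. Its ratios of -0.16 and -0.08 at the last times did not pass (adjusted p = 0.333 and 0.507). The forelimb gene *Tbx5* lay between 188 and 330 CPM (counts scaled to library size) in all libraries, and the summed level of 3 hindlimb genes between 10.6 and 25.0 CPM. Replicate 3 of the C59 18 h group stood apart from its partners, with a chi-square per degree of freedom of 45.5 and 38.1 over genes, against 4.21 between the other pair. The replicate pairs of the other groups lay between 3.13 and 18.2, so no replicates of a group were copies of each other.

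The stretches upstream of the start sites of *Slc2a1*, *Hk2*, *Pgam1* and *Ldha* are shown because these genes changed at 12 h and have 216 or 250 bases of RefSeq promoter sequence that no annotated exon of the gene overlaps. They are from GRCm38.p6, 5′ to 3′ on the strand of the gene, and capitals mark ACGTG or GCGTG on either strand, the core letters bound by hypoxia-inducible factors.
Slc2a1: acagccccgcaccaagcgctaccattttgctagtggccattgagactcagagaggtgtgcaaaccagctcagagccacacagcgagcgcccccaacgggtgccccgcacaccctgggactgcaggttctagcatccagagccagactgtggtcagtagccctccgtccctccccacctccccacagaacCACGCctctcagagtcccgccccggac
Hk2: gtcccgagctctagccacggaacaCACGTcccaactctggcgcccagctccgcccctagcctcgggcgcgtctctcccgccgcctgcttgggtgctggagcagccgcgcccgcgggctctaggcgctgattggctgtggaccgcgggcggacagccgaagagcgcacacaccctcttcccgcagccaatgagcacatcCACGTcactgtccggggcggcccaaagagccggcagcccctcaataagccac
Pgam1: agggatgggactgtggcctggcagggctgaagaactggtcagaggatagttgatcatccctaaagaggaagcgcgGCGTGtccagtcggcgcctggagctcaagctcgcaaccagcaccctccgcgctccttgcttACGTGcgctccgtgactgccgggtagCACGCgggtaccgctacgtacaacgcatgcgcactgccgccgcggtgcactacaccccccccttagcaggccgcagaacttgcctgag
Ldha: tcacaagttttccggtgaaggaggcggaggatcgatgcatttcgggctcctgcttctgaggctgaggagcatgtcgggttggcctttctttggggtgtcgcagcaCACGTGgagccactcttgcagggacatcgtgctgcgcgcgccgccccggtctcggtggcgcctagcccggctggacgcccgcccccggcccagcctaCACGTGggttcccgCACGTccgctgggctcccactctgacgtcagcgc

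These 4 stretches lie at chr4:119108495-119108710 on the plus strand (*Slc2a1*), chr6:82774455-82774704 on the minus strand (*Hk2*), chr19:41911621-41911870 on the plus strand (*Pgam1*) and chr7:46845554-46845803 on the plus strand (*Ldha*). The *Ldha* stretch precedes a RefSeq start site that lies inside the gene as GENCODE M21 draws it, since that annotation begins at 46841475. All 10 member symbols matched the promoter table, with 15 start sites between them. The core letters ACGTG or GCGTG were found within 250 bases before 11 of the 15 start sites. Of all 32851 windows of that length 38.6% held them. Overlapping windows of *Aldoa* share 1 match, which is counted at 2 of these start sites. By gene, 9 of the 10 held a match at 1 start site or more, and the per-window background is not a background for this count. *Tpi1* was the gene without a match. The *Ldha* stretch holds CACGTG, the E-box bound by MYC and other factors, at 2 places, and because an E-box contains ACGTG on both strands these places make up 4 of its 5 core matches. CACGTG was in 6.02% of all windows and in 1 of the 15 member windows. None of the 15 windows held CTTTG followed by 2 letters that are A or T, a short form of the TCF/LEF motif, which 14.8% of all windows hold on either strand. These are matches of letters in a short window and no binding was measured.

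The lower steps of glycolysis had some of the most abundant transcripts of the limb bud, in FPKM (fragments scaled to transcript length and library size), the unit that can be compared between genes. Averaged over the 30 libraries, *Pkm* was highest at 643 FPKM, above 99.6% of autosomal protein-coding genes, followed by *Ldha* at 438, *Aldoa* at 278, *Tpi1* at 232 and *Pgam1* at 109 FPKM. The enzymes of the upper part of the pathway were lower, with *Pfkl* at 54.1 FPKM, the carrier *Slc2a1* at 30.6, *Hk1* at 15.4 and *Hk2* at 8.79 FPKM. *Pfkp*, at 1.56 FPKM, and the upstream *Aldoa* row, at 1.30 FPKM, were above 48.9% and 47.7% of coding genes. The order from *Pkm* to *Pfkp* held in each of the 30 libraries.

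Most neighbours in this order were separated by more than the spread between replicates: *Pkm* and *Ldha* did not overlap in any of the 10 groups, nor did any neighbours from *Tpi1* down to *Pfkp*. *Ldha* and *Aldoa* did not overlap in 9 of the 10 groups, but *Aldoa* and *Tpi1* in only 5, and *Pfkp* and the upstream *Aldoa* row in 2. The order of close pairs also depends on the transcript length that is used. With CPM divided by the length of all annotated exons, 5 of the 11 rows kept their rank, *Tpi1* (177 CPM per kb) came before *Aldoa* (146) and *Hk2* (10.7) before *Hk1* (9.61).

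Most glycolysis genes declined while control forelimb buds developed from 1 to 24 h. In the DMSO groups 8 of the 11 rows were lower at 24 h and 1 was higher, with 29.2% of the 13580 genes tested lower and 30.2% higher, all at an adjusted p below 0.05. The median log2 fold change was -0.44 over the members and -0.0018 over all genes tested. The decline was deepest at the end of the pathway, in *Ldha* and *Pkm*, while *Hk1* moved the other way. Whole buds were sequenced, so fewer cells of a type and less RNA per cell cannot be told apart.

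*Ldha* was measured at 1350, 1199 and 1155 CPM at 1 h and at 640, 932 and 738 CPM at 24 h in the DMSO libraries. The groups did not overlap, and *Ldha* fell by 0.68 ± 0.10 on the log2 scale (SE, n = 3 against 3, edgeR adjusted p = 4.4e-05). *Pkm* went from 2217, 2180 and 2097 CPM to 1269, 1517 and 1333 CPM, a difference of -0.66 ± 0.06 (adjusted p = 2.7e-07). *Aldoa* was lower by 0.58, *Pfkl* by 0.48, *Pgam1* by 0.46, *Hk2* by 0.44, *Tpi1* by 0.34 and *Slc2a1* by 0.31 on the same scale. *Tpi1* was the 1 of these 8 whose libraries overlapped between 1 and 24 h, at 528 to 659 and 388 to 539 CPM. Its call was lost with DESeq2 (adjusted p = 0.0857) and with limma on FPKM (0.0738 to 0.161), and that of *Slc2a1* with limma on unfiltered FPKM (0.0911).

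*Hk1*, the hexokinase that most adult tissues use, rose from 72.3, 73.8 and 73.3 CPM to 88.3, 92.6 and 86.0 CPM, by 0.28 ± 0.05 on the log2 scale (adjusted p = 0.00011). All 3 libraries at 24 h lay above the 3 at 1 h. *Pfkp* was at -0.18 ± 0.12 and did not pass the test (adjusted p = 0.199).

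Cell type markers of the control buds also changed between 1 and 24 h. Of 10 muscle markers 9 were higher and 1 lower at 24 h (sums of 55.5 to 80.9 CPM at 1 h and 540 to 643 at 24 h), of 9 cartilage markers 8 were higher and 1 lower (642 to 756 and 1507 to 1674 CPM), and of 8 macrophage markers 7 were higher (16.8 to 21.1 and 43.9 to 48.5 CPM). Of 7 forelimb mesenchyme markers 5 were lower and 1 higher (2064 to 2084 and 1852 to 1890 CPM), and 4 of 8 endothelial markers were lower (404 to 426 and 370 to 381 CPM). Of 10 ectoderm markers 4 were higher and 5 lower, and of 7 erythroid markers 2 were higher and 4 lower. Their part in the decline of the glycolysis genes was not tested.

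In the C59 groups 7 of the 11 rows were lower at 24 h than at 1 h, where 25.7% of the 13510 genes tested were lower and 28.4% higher. The 7 were *Pkm* (-0.66), *Hk2* (-0.59), *Pfkl* (-0.44), *Aldoa* (-0.43), *Slc2a1* (-0.43), *Pgam1* (-0.41) and *Ldha* (-0.35). The median of the members was -0.41, beside -0.00033 over all genes. *Tpi1* at -0.05 ± 0.06 and *Hk1* at 0.09 ± 0.07 did not pass in the C59 series, and the difference between the 2 series was not tested.

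**Figure D1:**
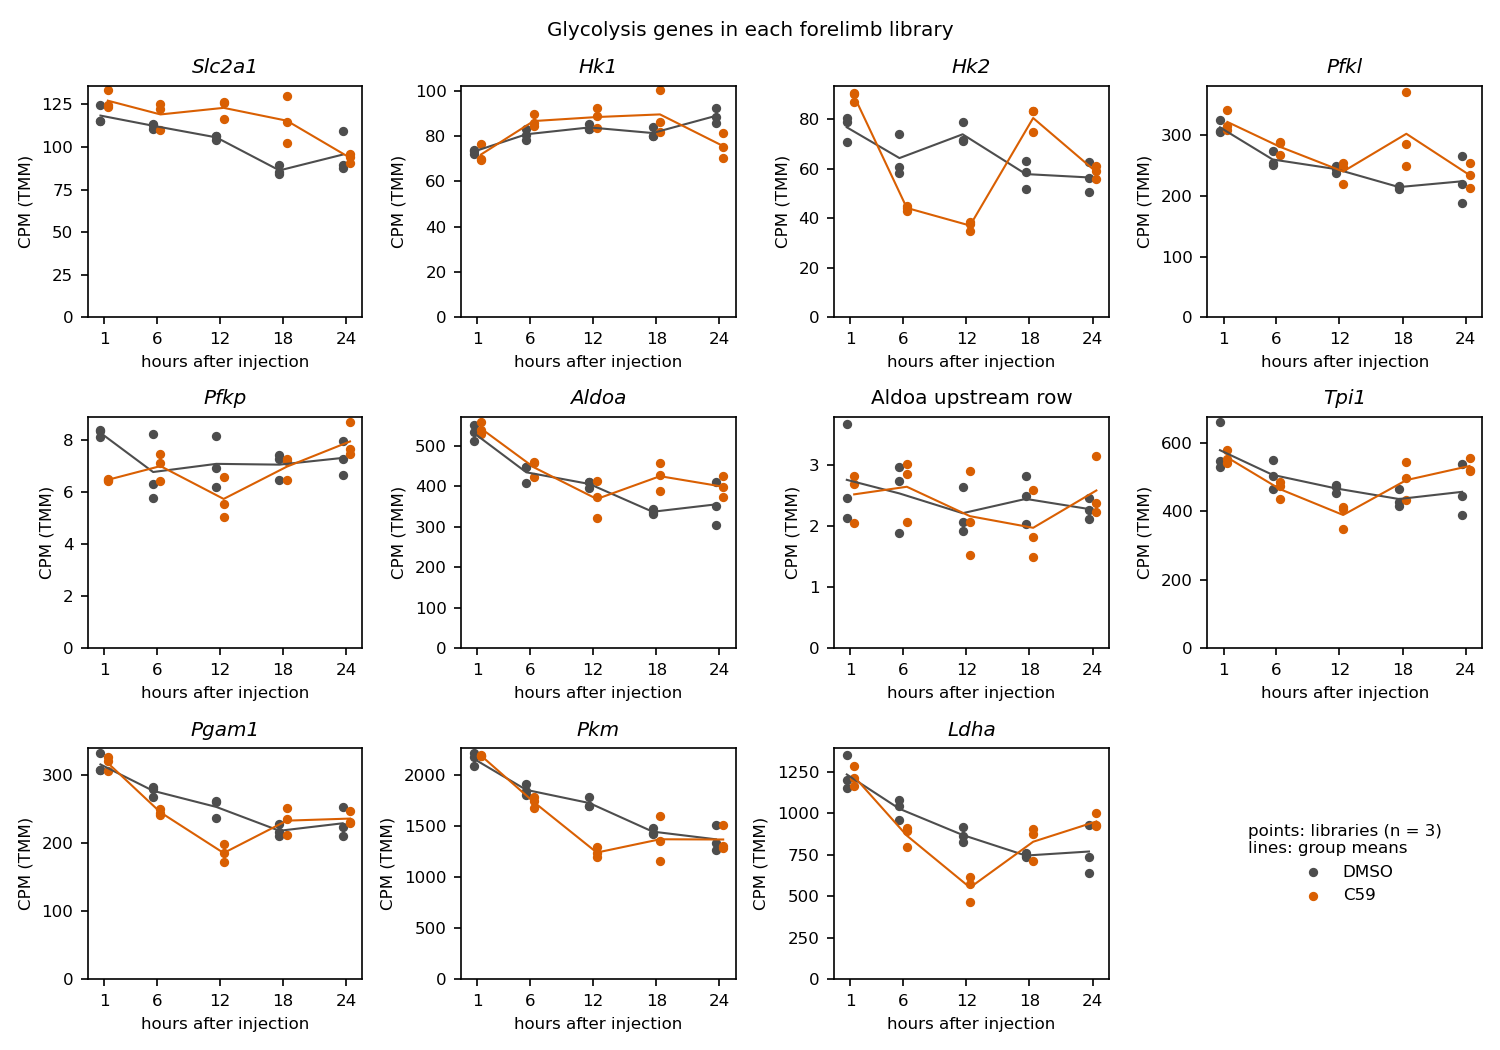
TMM-scaled CPM (vertical axes, linear, from 0) of the 11 glycolysis rows in all 30 forelimb libraries against hours after injection, in grey for DMSO and in orange for C59. Points are libraries and lines join the means of 3. *Hk2*, *Ldha*, *Pkm*, *Pgam1* and *Tpi1* of the C59 libraries lie below all DMSO libraries at 12 h, and *Hk2* of the C59 libraries goes from 87.1 to 90.6 CPM at 1 h to 34.7 to 38.5 CPM at 12 h and back to 74.9 to 83.3 CPM at 18 h.

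Among the members, *Hk2* was higher in C59-treated buds as early as 1 h after injection. It was measured at 78.8, 70.9 and 80.4 CPM in DMSO and at 87.1, 90.6 and 90.1 CPM in C59, without overlap. The difference was 0.22 ± 0.05 on the log2 scale (edgeR adjusted p = 0.0424), and it missed the threshold when any library but DMSO replicate 3 was left out, with adjusted p up to 0.163. The summed FPKM of 4 Y-linked genes (*Ddx3y*, *Kdm5d*, *Eif2s3y*, *Uty*) was 0.0469 to 9.03 in these DMSO libraries and 21.2 to 38.2 in the C59 libraries, so embryo sex differed too and its part was not tested. This was 1 of 11 rows, beside 1.14% of the 13076 genes tested that were higher and 1.61% that were lower, with 0.283% past the test and beyond 1 on the log2 scale. *Pfkp* was lower without overlap (8.40, 8.33 and 8.11 against 6.43, 6.47 and 6.52 CPM) but did not pass at -0.35 ± 0.12 (adjusted p = 0.130). The median over the members was 0.01 and over all genes 0.0016.

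At 6 h the change was centred on *Hk2*, with smaller decreases at the lower end of the pathway. *Hk2* lay at 60.5, 73.9 and 58.4 CPM in DMSO and at 45.1, 43.1 and 44.2 CPM in C59. No C59 library reached the lowest DMSO library, and *Hk2* was lower by 0.55 ± 0.08 on the log2 scale (adjusted p = 0.00025). *Ldha* was at 1081, 958 and 1044 CPM against 911, 795 and 892 CPM, a difference of -0.25 ± 0.06 (adjusted p = 0.0077). *Pgam1* was at 283, 268 and 280 against 251, 244 and 241 CPM, a difference of -0.18 ± 0.04 (adjusted p = 0.011). The 3 decreases among 11 rows stand beside 11.4% of 13100 genes that were lower and 8.20% that were higher, and 1.17% of genes passed with a change beyond 1.

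The 8 rows that did not pass at 6 h lay between -0.13 (*Tpi1*) and 0.11 (*Pfkl*), and the median of the members was 0.04, beside 0.0050 over all genes. *Pkm* at -0.10 ± 0.04 did not overlap between the groups but missed the threshold (adjusted p = 0.113). *Pgam1* also missed it without C59 replicate 2 (adjusted p = 0.0511) or replicate 3 (0.0618), and neither *Ldha* nor *Pgam1* passed when FPKM was tested with limma (adjusted p = 0.077 and 0.0806). The summed FPKM of the 4 Y-linked genes was 0 in all DMSO libraries and 19.8 to 33.2 in all C59 libraries at 6 h, so that at this time embryo sex and treatment cannot be told apart. Of 7 forelimb mesenchyme markers 5 were lower at this time (sums of 1431 to 1557 CPM in C59 and 2135 to 2166 in DMSO), and of 7 cartilage markers tested 2 were higher and 1 lower (1080 to 1278 against 943 to 1010 CPM). Of 10 ectoderm markers 4 were lower and 1 higher, and of 10 muscle markers 2 were higher and 2 lower. Lower were also 1 of 8 endothelial and 2 of 7 erythroid markers, and no macrophage marker passed. The part of these cell types was not tested.

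At 12 h 5 of the 11 rows were lower, most of the lower pathway among them, and *Slc2a1* was higher. In comparison, 25.5% of the 13324 genes tested were lower and 22.0% were higher, so a large part of the transcriptome differed at this time. The median log2 fold change was -0.26 over the members, beside 0.02 over all genes. None of the 11 rows passed the test with a change beyond 1 on the log2 scale, as 4.95% of genes did, and *Hk2* lay just inside that limit.

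*Hk2* was measured at 71.5, 78.9 and 71.3 CPM in DMSO and at 37.8, 38.5 and 34.7 CPM in C59. The C59 libraries held 0.501 of the control level on average, a difference of -0.997 ± 0.064 on the log2 scale (adjusted p = 1.5e-06), and the groups were far apart compared with their spread. *Ldha* lay at 861, 830 and 918 CPM in DMSO and at 616, 576 and 466 CPM in C59. The difference was -0.65 ± 0.09 (adjusted p = 0.00015), which is 0.635 of the control level.

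*Pkm*, the most abundant member, was at 1697, 1702 and 1787 CPM in DMSO and at 1299, 1234 and 1195 CPM in C59, lower by 0.48 ± 0.04 (adjusted p = 9.4e-06). *Pgam1* went with it, at 261, 237 and 262 against 199, 185 and 172 CPM, lower by 0.45 ± 0.06 (adjusted p = 0.00018). *Tpi1* changed least of the 5, at 475, 453 and 471 against 411, 406 and 349 CPM, lower by 0.26 ± 0.06 (adjusted p = 0.0050). In all 5 genes every C59 library lay below every DMSO library.

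*Slc2a1* moved the other way, at 106, 104 and 106 CPM in DMSO and 127, 116 and 126 CPM in C59, higher by 0.22 ± 0.05 on the log2 scale (adjusted p = 0.0034). All 3 C59 libraries lay above the controls. *Hk1* (0.08 ± 0.05), *Pfkl* (-0.02 ± 0.06), *Pfkp* (-0.30 ± 0.16), *Aldoa* (-0.14 ± 0.08) and its upstream row (-0.03 ± 0.28) did not pass. The summed CPM of the 11 rows was 4241 ± 117 in DMSO and 3235 ± 244 in C59 (mean ± SD, n = 3 each).

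The 6 calls at 12 h were kept after leaving out any 1 library. *Hk1* passed as higher in counts scaled by upper-quartile factors (0.16, adjusted p = 0.027) and when tested in FPKM (0.17 on the log2(FPKM + 1) scale, limma adjusted p = 0.0159), where its libraries did not overlap (15.2 to 15.6 FPKM in DMSO and 17.0 to 17.8 in C59). The Y-linked sum ranged from 0.146 to 38.6 FPKM in DMSO and from 0.108 to 18.8 in C59 at this time.

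**Figure D2:**
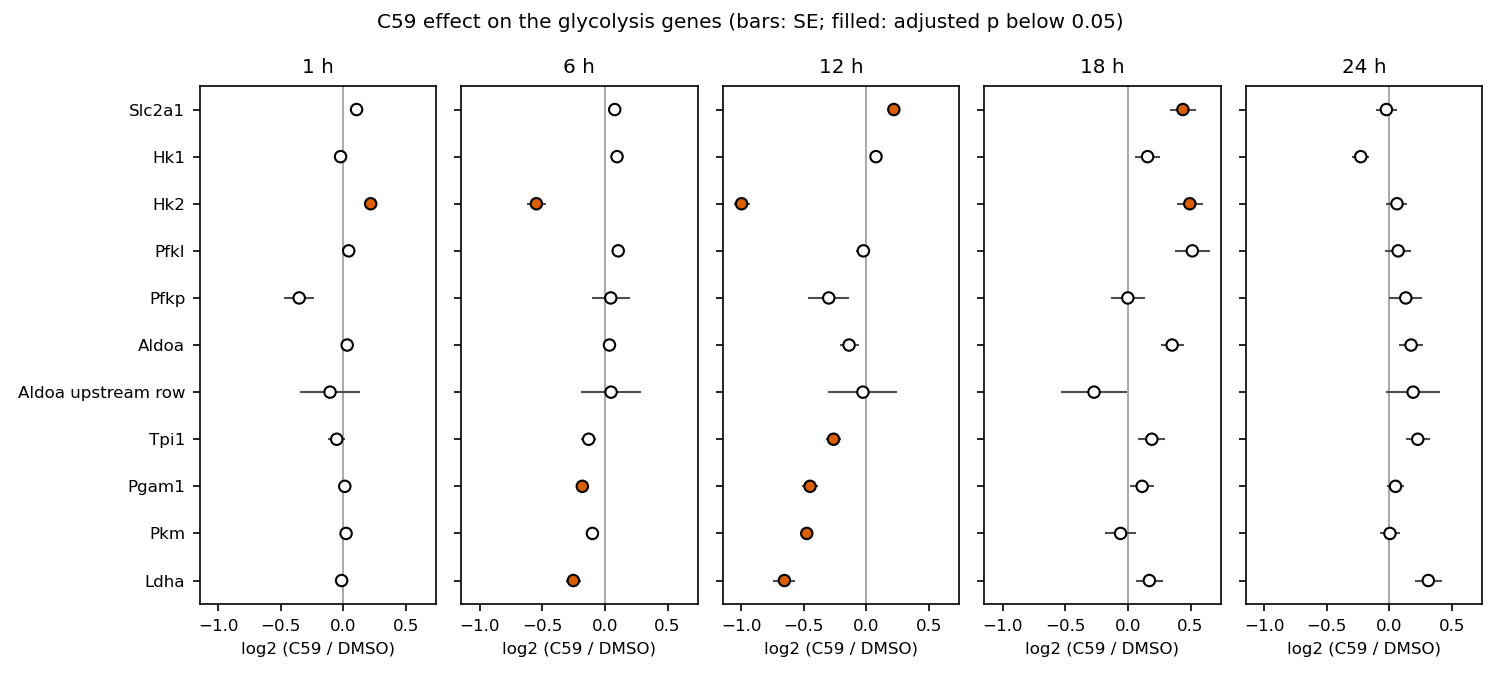
Log2 ratio of C59 to DMSO (horizontal axes) of the 11 glycolysis rows at 1, 6, 12, 18 and 24 h. Points are edgeR estimates, bars are their SE, and filled points have an adjusted p below 0.05. The filled points are *Hk2* at 1 h, 3 decreases at 6 h, 5 decreases and *Slc2a1* at 12 h, and *Slc2a1* and *Hk2* as increases at 18 h.

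Cell type markers also differed at 12 h. Of 9 markers of cartilage precursors, 7 were higher in C59 and their summed level was 2076 to 2802 CPM, against 1096 to 1162 in DMSO, with *Sox6* and *Matn1* the most increased (1.56 and 1.81 on the log2 scale). Of 7 markers of forelimb mesenchyme, 5 were lower and 1 higher, at a sum of 1397 to 1465 against 1998 to 2141 CPM, with *Msx1* at -3.01 and *Twist1* at -1.19. Of 10 muscle markers 6 were higher and 2 lower (243 to 331 against 101 to 198 CPM), of 10 ectoderm markers 6 were higher and 1 lower (422 to 574 against 339 to 375 CPM), and of 8 endothelial markers 4 were higher (435 to 485 against 350 to 388 CPM). Of 8 macrophage markers 6 were higher (45.3 to 47.0 against 25.1 to 26.9 CPM), and of 7 erythroid markers tested 1 was higher, with sums of 6746 to 9634 and 5359 to 7764 CPM that overlapped. No marker was at 0 in either group at 12 h, and the part of these cell types in the change of the glycolysis genes was not tested.

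By 18 h the decrease was no longer seen, and *Hk2* and *Slc2a1* were higher in C59-treated buds than in the controls. *Hk2* was at 51.6, 63.2 and 58.6 CPM in DMSO and at 83.3, 74.9 and 83.1 CPM in C59, a difference of 0.49 ± 0.10 (adjusted p = 0.0262). *Slc2a1* was at 85.2, 89.2 and 84.3 CPM against 114, 102 and 130 CPM, a difference of 0.44 ± 0.11 (adjusted p = 0.0407). Neither gene overlapped between the groups. These 2 of 11 rows stand beside 3.46% of 13413 genes higher and 3.62% lower, with 1.29% past the test and beyond 1.

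*Pfkl* and *Aldoa* did not overlap either at 18 h but were just outside the threshold (0.51 ± 0.14, adjusted p = 0.0592, and 0.35 ± 0.09, adjusted p = 0.0521). The C59 group was more scattered than the others at this time. The rank of single libraries was counted over the 11 rows only, not over all genes. Replicate 3, the library that stood apart, was the highest of its group in 9 of the 11 rows, for example with 372 CPM of *Pfkl* against 286 and 250 CPM. Without that library 4 rows passed (*Pfkl* at 0.33, adjusted p = 0.0155, *Aldoa* at 0.29, adjusted p = 0.016, and *Hk2* and *Slc2a1*), whereas leaving out any other library of these groups ended the calls of *Hk2* and *Slc2a1*, with adjusted p up to 0.117 and 0.176. The median of the members was 0.17, beside 0.0012 over all genes. Of 9 cartilage markers 4 were higher at 18 h (sums of 1869 to 2244 CPM in C59 and 1224 to 1395 in DMSO) and of 8 macrophage markers 3 (55.5 to 62.0 against 38.2 to 42.1 CPM). Of 10 ectoderm markers 5 were higher and 1 lower (427 to 510 against 337 to 360 CPM), and of 10 muscle markers 2 were higher and 2 lower (363 to 532 against 318 to 371 CPM). Of 7 forelimb mesenchyme markers 2 were lower, *Msx1* (-1.89) and *Prrx2* (-0.69), with sums of 1531 to 1875 and 1863 to 1940 CPM. The sums of the erythroid markers (4946 to 7649 against 4190 to 5296 CPM) and of the endothelial markers (382 to 421 against 345 to 394 CPM) overlapped. The part of these cell types was not tested.

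At 24 h none of the 11 rows passed the edgeR test, 3 had an unadjusted p below 0.05 (*Hk1*, *Tpi1* and *Ldha*), DESeq2 called 2 (*Ldha* and *Hk1*), 1 edgeR fit over all 30 libraries called 1 (*Hk1*) and limma called 0. Among the 13675 genes tested 2.88% were higher, 3.56% lower and 0.819% past the test beyond 1. *Ldha* was at 640, 932 and 738 CPM in DMSO and at 1000, 932 and 921 CPM in C59, a difference of 0.31 ± 0.11 (edgeR adjusted p = 0.106). Replicate 2 of the DMSO group was the highest of its group in 9 of the 11 rows, a rank not counted over all genes. Without that library *Ldha* (0.47, adjusted p = 0.0111) and *Tpi1* (0.36, adjusted p = 0.0374) passed as higher in C59. *Hk1* lay at 88.3, 92.6 and 86.0 against 81.3, 70.4 and 75.1 CPM, without overlap, at -0.23 ± 0.07 (adjusted p = 0.0689). The median over the members was 0.07 and over all genes 0.0037. The Y-linked sum was 0.0147 to 20.1 FPKM in DMSO and 19.3 to 25.0 in C59, so embryo sex was not balanced. In C59, 5 of 10 ectoderm, 3 of 9 cartilage and 2 of 8 macrophage markers were higher. Of 10 muscle markers 2 were higher and 2 lower. Lower were 1 of 7 forelimb mesenchyme, 1 of 8 endothelial and 2 of 7 erythroid markers. The part of sex and of these cell types was not tested.

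The differences were compared with one another in a fit over the 12 libraries of each pair of times, and since all 3 comparisons use the 12 h libraries they are not independent of each other. From 6 to 12 h the effect became more negative in 4 of the 11 rows, *Hk2* (by 0.45 ± 0.11), *Ldha* (by 0.40 ± 0.11), *Pkm* (by 0.38 ± 0.06) and *Pgam1* (by 0.27 ± 0.07), where 11.5% of the 13565 genes tested changed in this direction and 6.59% in the other. *Pkm* had the smallest adjusted p of these, at 0.00026, and the median over the members was -0.18, beside -0.01 over all genes. The calls of *Ldha* and *Pgam1* were each lost when any of 5 of the 12 libraries was left out, with adjusted p up to 0.0716 and 0.0772. Embryo sex and treatment cannot be told apart at 6 h, so these changes cannot be separated from embryo sex.

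From 12 to 18 h the effect turned upward in 5 rows, where 4.94% of 13694 genes did so and 3.55% went down. The change was 1.49 ± 0.12 for *Hk2* (adjusted p = 1.2e-05), 0.83 ± 0.15 for *Ldha*, 0.57 ± 0.12 for *Pgam1*, 0.50 ± 0.13 for *Aldoa* and 0.46 ± 0.13 for *Tpi1*. *Aldoa* and *Tpi1* rest on narrow margins (adjusted p = 0.0268 and 0.0454), and were lost in 7 and 9 of the 12 fits that leave out 1 library, with adjusted p up to 0.0714 and 0.109. The median over the members was 0.46, beside -0.01 over all genes. From 12 to 24 h it turned upward in *Hk2* (1.05), *Ldha* (0.96), *Pgam1* (0.49), *Tpi1* (0.48) and *Pkm* (0.47) and downward in *Hk1* (-0.31), 5 rows and 1 row beside 19.2% and 17.7% of 13798 genes. The median was 0.42 over the members and -0.03 over all genes. Embryo sex was not balanced at 24 h, and its part in this change was not tested.

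*Hk2*, the form that growing and glycolytic tissues induce, changed in both directions, while *Hk1*, which does the same reaction, did not pass the edgeR test with TMM scaling at any of the 5 times. Other fits called *Hk1* at 12 and 24 h, with the values given above for these times. Per length, *Hk2* made up 39.4% ± 1.9 of the summed FPKM of the pair in DMSO at 12 h and 23.2% ± 0.5 in C59 (mean ± SD, n = 3 each). In order of time, the mean *Hk2* share was 47.0%, 27.6%, 23.2%, 39.8% and 36.5% in the C59 groups. In the DMSO groups it was 43.7%, 36.7%, 39.4%, 34.3% and 31.9%. The C59 libraries lay below all DMSO libraries of the same time at 6 and 12 h, and above them at 18 and 24 h. At 24 h *Hk2* itself was at 0.06 ± 0.08 on the log2 scale (edgeR adjusted p = 0.723). *Hk1* was at -0.23 ± 0.07 (adjusted p = 0.0689), so the higher share at 24 h does not show a rise of *Hk2*. The size of the share depends on the length used for each gene, since CPM per kb of exon gave 55.7% and 37.4% at 12 h, with the same order of the groups.

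**Figure D3:**
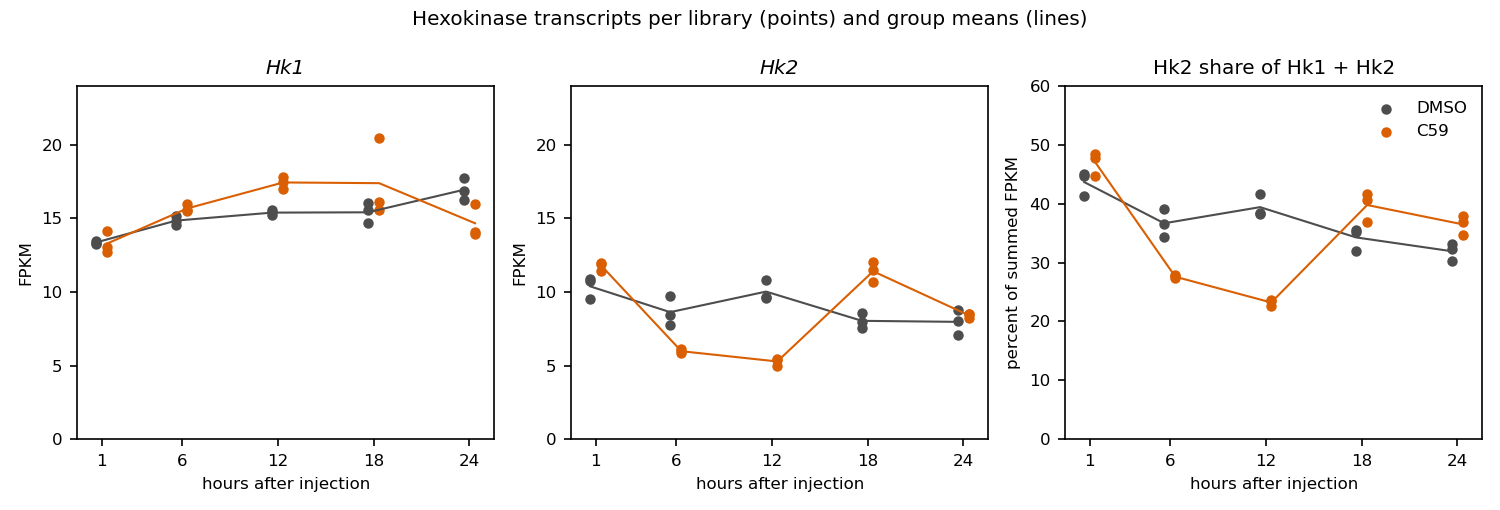
*Hk1* and *Hk2* in FPKM, and the share of *Hk2* in the summed FPKM of both, per library (points) against hours after injection, with lines through the group means, in grey for DMSO and in orange for C59. The mean *Hk2* share of the C59 libraries is lowest at 12 h, with 23.2%.

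The remaining enzymes of glycolysis were mixed at 12 h: of 16 tested, 3 were lower and 4 higher, with a median of -0.07. *Eno1*, the enolase between *Pgam1* and *Pkm*, was at 1005 ± 49 CPM in DMSO and 712 ± 41 CPM in C59 (-0.50, adjusted p = 3.2e-05), beside *Hkdc1*, a minor hexokinase, which had the largest decrease (-1.58) at the low levels of 1.19 and 0.377 CPM. The largest increases were in *Eno2* (0.84) and *Pgam2* (0.82), the neuronal enolase and the muscle phosphoglycerate mutase, of which *Pgam2* was at 14.7 CPM in C59. *Gapdh* was lower by 0.32, at 1869 CPM in DMSO and 1501 CPM in C59. At 6 h 4 were lower and 1 higher (*Pklr* at -0.68, *Eno3* at -0.37, *Pgam2* at 0.66). At 1 h *Pklr*, the pyruvate kinase of liver and red cells, was higher (0.81) together with 3 of 7 erythroid markers, whose sum was 6106 to 8621 CPM in C59 and 4598 to 6190 CPM in DMSO. At 6 h *Pklr* was lower together with 2 of 7 erythroid markers (sums of 3322 to 4394 and 4340 to 4761 CPM), and the part of blood cells in this was not tested. At 18 h *Gpi1*, glucose phosphate isomerase, was higher (0.37) and *Hkdc1* lower (-1.77), and *Hkdc1* was the one gene of this list called at 24 h (-1.51).

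*Pgk1*, phosphoglycerate kinase, lies on the X chromosome, which the count table used here does not cover, so it was tested on FPKM with limma. It was at 217 ± 7 FPKM in DMSO and 189 ± 17 FPKM in C59 at 12 h, lower by 0.20 ± 0.06 (adjusted p = 0.0228). Its differences at the other times lay between -0.12 (6 h) and 0.23 (24 h) and did not pass.

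The enzymes that set fructose 2,6-bisphosphate, the activator of phosphofructokinase, held 1 gene called at the same 3 times as *Hk2* after 1 h, in the same directions. *Pfkfb3*, which makes the activator, was lower by 0.60 at 6 h (adjusted p = 9.7e-05) and by 0.35 at 12 h (adjusted p = 0.027) and higher by 0.63 at 18 h (adjusted p = 0.0087). *Tigar*, which removes it, was lower at 12 h (-0.54) and *Pfkfb2* higher (0.36), so 2 of the 4 tested in counts were lower and 1 higher. The X-linked *Pfkfb1*, tested in FPKM, was higher at 12 h (0.30, limma adjusted p = 0.0317).

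Among 8 transporters tested, the lactate carriers *Slc16a1* and *Slc16a3* were lower at 12 h (-0.42 and -0.25) and *Slc16a7* higher (0.46). *Slc16a3*, the exporter of glycolytic cells, was higher at 18 h (0.54, adjusted p = 0.022). At 6 h the glucose carrier *Slc2a3* (-0.48) and *Slc16a1* (-0.43) were lower and *Slc2a8* (0.48) and *Slc2a4* (0.43) higher. Of the gluconeogenesis enzymes, which run the pathway backward, *Pcx* was the 1 called of 3 tested at 12 h (-0.23).

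Many genes of the pathways next to glycolysis were lower at 12 h. Of 25 genes of pyruvate entry and the citric acid cycle, 14 were lower and 3 higher, with a median of -0.23, led by *Idh3a* (-0.68) and *Fh1* (-0.45), while *Pdk2* (0.83) and *Pdk1* (0.37), kinases that hold back pyruvate entry, were higher (*Pdk1* is also in the hypoxia list that follows). The X-linked *Pdk3*, a kinase of the same kind, was lower in FPKM (-0.17, limma adjusted p = 0.0149), at 20.2 FPKM in DMSO and 17.8 in C59. Of 7 genes of the pentose phosphate pathway, which takes glucose from glycolysis for nucleotide synthesis, 5 were lower, with a median of -0.27, the largest in *Tkt* (-0.68, 303 ± 11 against 189 ± 7 CPM) and *Rpia* (-0.59). The background for all these lists at 12 h is the same 25.5% lower and 22.0% higher.

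A list of hypoxia-induced genes outside glycolysis, which also holds the HIF subunits *Hif1a*, *Arnt* and *Epas1*, had changes in the other direction. Of 20 tested at 12 h, 9 were higher and 11 did not pass, with a median of 0.18, with *Ndrg1* (1.02) and *Ddit4* (0.97, from 138 ± 6 to 270 ± 25 CPM). *Arnt* and *Epas1* were among the 9 (0.14 and 0.47). *Hif1a* did not pass at 1 and 18 h (-0.05 and -0.14, edgeR adjusted p = 0.576 and 0.650). At 6 h 5 of the 20 were higher, beside 8.20% of all genes tested, and these were *Ndrg1* (0.74), *Ddit4* (0.59), *Kdm3a* (0.26), *Epas1* (0.43) and *Arnt* (0.16). At 18 h *Ddit4* (0.73), *Egln3* (0.56) and *P4ha2* (0.45) were higher, beside 3.46% of all genes, and at 24 h *P4ha2* (0.31). *Slc2a1* was the 1 member higher at 12 h.

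**Figure D4:**
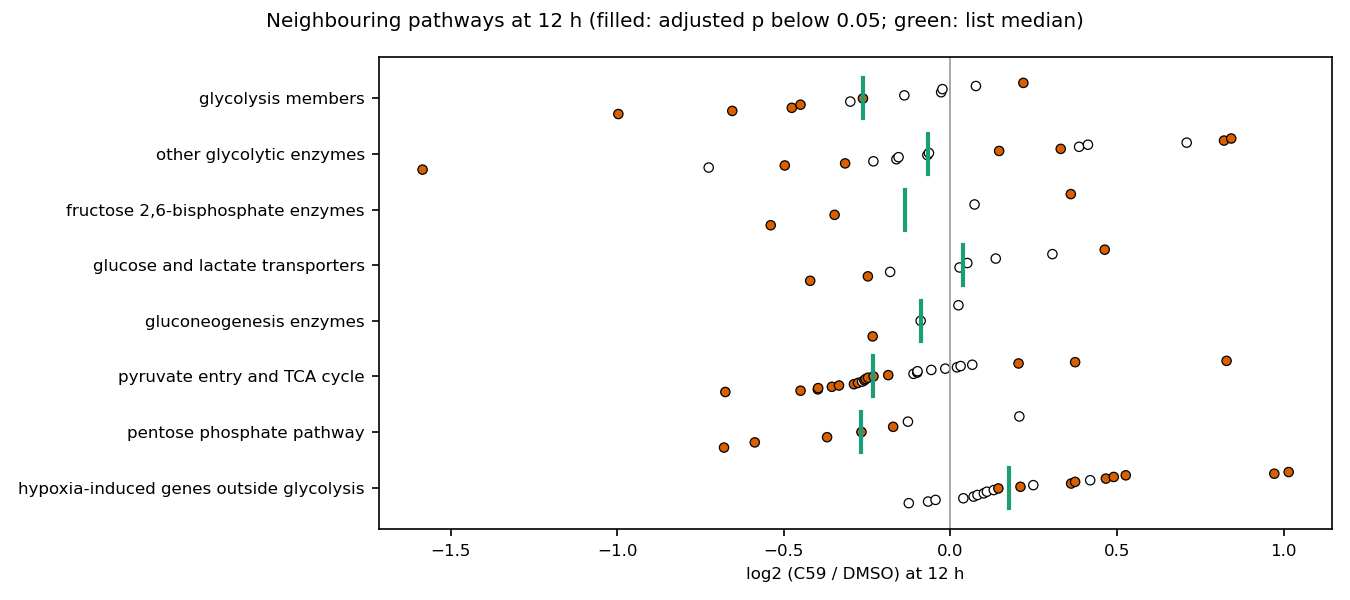
Log2 ratio of C59 to DMSO at 12 h (horizontal axis) for the glycolysis genes and 7 lists of neighbouring pathways (rows). Each point is a gene, filled where the adjusted p is below 0.05, and the green bar is the median of the list. The medians lie at -0.26 for the glycolysis genes, -0.23 for the citric acid cycle, -0.27 for the pentose phosphate pathway and 0.18 for the hypoxia-induced genes.

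Across the 10 group means, the members were not a uniform group: the correlation of each with the mean of all standardised member profiles was 0.97 for *Pgam1*, 0.95 for *Ldha*, 0.94 for *Aldoa*, 0.91 for *Tpi1*, 0.90 for *Pkm*, 0.83 for *Pfkl*, 0.71 for *Hk2*, 0.48 for *Slc2a1*, 0.45 for *Pfkp* and -0.69 for *Hk1*. Of 9372 genes outside the lists with a mean of at least 10 CPM, those closest to the mean profile were *Guk1* (Pearson r = 0.99), *Ccm2* (0.98), *Nubp2* (0.97), *Slc25a39* (0.96) and *Mif* (0.95). These are descriptions over 10 points that share libraries and a common trend with time. Each member row is part of the mean it was compared with, which raises its correlation. The upstream *Aldoa* row, which counts in that mean like the others, was at 0.54.

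Transcripts of other genes with at least 95% identity over at least 150 bases, on either strand, were found for 7 of the 11 rows. *Pgam1-ps2* is identical to *Pgam1* over 765 bases. For *Ldha*, *Pgam1*, *Tpi1* and *Aldoa* the copies were processed pseudogenes whose counts made up 0.405% or less of the counts of gene and copies together. For *Pkm* the copies took 1.03%, most of it in *Gm49759*, a provisional annotation that shares 455 bases with *Pkm*. *Pfkp* overlaps *Pitrm1* on the opposite strand over 748 bases, and since the strand setting of the counting is not stated, reads of *Pitrm1* (162 CPM on average against 7.07 for *Pfkp*) could enter or be withheld from *Pfkp*, so its values are uncertain. The paper computed FPKM with an unstranded library setting, so the FPKM of *Pfkp* carry the same doubt. *Hk1* overlaps the antisense transcript *Hk1os*, at 0.679 CPM.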

How the data were processed

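PolyA RNA of 30 forelimb bud libraries (10 groups of 3) was sequenced by the authors, who trimmed reads with Cutadapt 1.16. They mapped the reads with STAR 2.7.0e to mm10 with a custom annotation and deposited read counts per gene. According to the paper the counts were made during mapping, but the name given to the deposited counts refers to HTSeq, so the counting program is uncertain. The authors also deposited FPKM values from Cufflinks 2.2.1, with bias and multi-read correction. The strand setting of the counting is not given in the sources used here. The labels give no litter or batch, so p-values measure the spread between these samples.

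Counts of protein-coding autosomal genes, of 20569 in the table, were filtered with filterByExpr, scaled by TMM and tested with the quasi-likelihood test of edgeR 4.0.16 (R 4.3.3), with 6 libraries for each time, 12 for changes of the effect and 6 for development. P-values were adjusted by Benjamini-Hochberg over all genes tested, at 0.05. The study's own fold limit of 1 on the log2 scale was counted beside it. SE is the estimate divided by the root of the F statistic. CPM printed are TMM-scaled over all libraries. Alternatives were DESeq2 1.42.0, other scalings and filters, limma 3.58.1 on log2(FPKM + 1) and log2(FPKM + 0.1) with a mean of at least 0.5 FPKM or no filter, left-out libraries, a replicate block and 1 fit over all libraries. The test of *Pgk1*, *Pdk3* and *Pfkfb1* on FPKM was added after seeing that the count table has no X-linked rows. Scripts were tested on simulated counts with known changes.

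The members and the 16 gene lists were chosen with earlier results of these data known. All members are named. Of every other list, the 2 largest increases and decreases among the genes called at a time could be named. *Gapdh*, *Pgk1*, *Pdk3*, *Pfkfb1*, *Tbx5* and, of the hypoxia list, *Hif1a*, *Arnt*, *Epas1*, *Kdm3a* and, at 18 h, *P4ha2* fall outside this rule and were chosen after their values were seen. The 5 genes of like profile are those with the highest correlation among genes of at least 10 CPM. Promoter sequences are RefSeq's for GRCm38.p6, cut before the first exon base annotated in GENCODE M21. Copies were sought with blastn 2.17.0. Same-numbered libraries were checked for pairing: correlations of their deviations from the group means ran from -0.256 to 0.154. They lay above those of other pairs at 12 h (0.043 to 0.154 against -0.112 to 0.018). At 6 h they lay below them (-0.028 to -0.019 against 0.0014 to 0.021). With 3 libraries per group this cannot exclude pairing, and samples were not treated as paired.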

Additional observations from a re-analysis of the deposited data

Results flagged for a closer look

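The effect of C59 on a member was taken as differing between time points where the test of the difference itself passed (edgeR, adjusted p below 0.05). From 6 to 12 h the log2 ratio of C59 to DMSO changed by -0.45 for *Hk2*, -0.40 for *Ldha*, -0.38 for *Pkm* and -0.27 for *Pgam1*. From 12 to 18 h it changed by 1.49 for *Hk2*, 0.83 for *Ldha*, 0.57 for *Pgam1*, 0.50 for *Aldoa* and 0.46 for *Tpi1*. From 12 to 24 h it changed by 1.05 for *Hk2*, 0.96 for *Ldha*, 0.49 for *Pgam1*, 0.48 for *Tpi1*, 0.47 for *Pkm* and -0.31 for *Hk1*. *Hk2*, *Ldha* and *Pgam1* are in all 3 sets. Embryo sex cannot be told apart from treatment at 6 h and was not balanced at 24 h, and its part was not tested. No group has more than 3 libraries, so single libraries were not tested as outliers.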

How the results depend on the processing

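The 6 members called at 12 h kept their direction and their side of the threshold under 11 other settings and 6 left-out libraries, except *Tpi1* with limma on unfiltered FPKM (adjusted p = 0.0671). With a log2 fold change beyond 1 required, 0 members were called at 1, 6, 12 and 18 h. The *Hk2* call at 1 h was lost (0 members) with all genes of the count table, with limma in its 3 forms, with the replicate block and in 1 fit over all libraries. At 6 h the count fell from 3 to 1 with limma in its 3 forms and in 1 fit over all libraries. At 18 h it was 4 with DESeq2 and in 1 fit over all libraries, 1 with limma on unfiltered FPKM and 0 with the replicate block, and at 24 h it was 2 with DESeq2 and 1 in 1 fit over all libraries. For the change from 6 to 12 h, 2 instead of 4 members were called with upper-quartile factors and with limma on filtered FPKM and 1 without the filter. For the change from 12 to 18 h, 3 instead of 5 were called with limma on filtered FPKM and 2 without the filter. Leaving out 1 library gave 0 to 1 members at 1 h, 2 to 4 at 6 h, 6 to 7 at 12 h, 0 to 4 at 18 h, 0 to 2 at 24 h, 2 to 4 for 6 to 12 h, 3 to 7 for 12 to 18 h, 6 to 7 for 12 to 24 h, and 9 and 7 throughout for development, where other settings lost *Tpi1* (DESeq2, limma in its 3 forms) and *Slc2a1* (limma on unfiltered FPKM) in DMSO. The median of the members ran from -0.01 to 0.05 at 1 h, -0.11 to 0.0045 at 6 h, -0.29 to -0.19 at 12 h, 0.10 to 0.27 at 18 h and 0.048 to 0.147 at 24 h, so its sign at 6 h depends on single libraries. The replicate block changed the calls of *Hk2* at 1 h, *Hk2* and *Slc2a1* at 18 h and *Tpi1* for 12 to 18 h, and no other call of a member. The labels give no pairing of samples. By CPM per kb of exon, 5 of 11 rows kept their rank. No call of a member reversed. In all, 1113 of the values of single members under other settings stayed on their side, 41 lost and 23 gained a call, and 800, 43 and 15 did so among left-out libraries. The cause of these shifts was not tested. The low counts of *Pfkp* and of the upstream *Aldoa* row limit their precision.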

Other observations

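In some groups a single library was the highest or the lowest in most member rows. Replicate 2 of the DMSO 24 h group was the highest of its 3 libraries in 9 of 11 rows, with a median log2 ratio of 0.24 to the mean of the other 2, and replicate 3 of the C59 18 h group in 9 of 11 rows, with 0.23. In the same C59 18 h group, replicate 2 was the lowest in 10 rows, at -0.26. In the DMSO 18 h group these medians lay between -0.03 and 0.04. Ranks and medians were taken over the member rows only and not over all genes, so they are not shown to be particular to the members. The chi-square per degree of freedom over all genes set replicate 3 of C59 18 h apart from its partners, but not replicate 2 of DMSO 24 h, whose values of 4.92 and 4.47 were within the range of other pairs.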
